A study of Mus musculus with 8 samples.

Results

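Of the 10 genes of hepatic insulin signalling described here, 8 were measured, each by 1 probe set, on Affymetrix mouse U74Av2 arrays of 8 livers. The members were the insulin receptor (Insr), its substrates (Irs1, Irs2), the regulatory subunit of phosphoinositide 3-kinase (Pik3r1), the kinases Akt1 and Akt2, the transcription factors Foxo1 and Foxo3, the phosphatase gene Ptpn1 and the kinase gene Gsk3b. They were chosen by name: every probe set whose annotation gave exactly 1 gene symbol, and that symbol one of the 10, was taken, which gave 8 of the 12422 non-control probe sets and 8 of the 8252 genes with such a probe set. Foxo1 and Gsk3b had no such probe set, and their expression was not analysed here. The livers came from female Ames dwarf mice, homozygous for the df allele (df/df), given standard pelleted chow without restriction and killed at 24 to 26 months. Every sample had this genotype, sex, diet and age range, so the livers form 1 group, and no control genotype or restricted diet was analysed here. The df mutation disables a pituitary transcription factor, and its carriers are deficient in growth hormone, thyrotropin and prolactin. Each liver was hybridised to 1 array, and livers are numbered by the number in their title.

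Insulin binds its receptor on hepatocytes, and the activated receptor phosphorylates the substrate proteins IRS1 and IRS2, which recruit phosphoinositide 3-kinase. The lipid that this kinase makes activates AKT, and AKT in turn phosphorylates FOXO factors, which then leave the nucleus, and glycogen synthase kinase 3. When insulin is low, FOXO factors in the nucleus raise transcription of genes of glucose production and of Irs2 and Igfbp1. The signal itself is carried by phosphorylation, which mRNA levels do not report.

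Signal is the deposited array intensity on a linear scale. A probe set was tested for variability between livers if its mean log2 signal exceeded a threshold equal to a signal of 162, the median over non-control probe sets, since no detection calls were used and lower signals could not be told from background. By this rule 5 members were tested (Pik3r1, Akt1, Akt2, Foxo3, Ptpn1) and 3 were not (Insr, Irs1, Irs2). Array medians were 155 to 180.2, and the correlation between arrays over 6211 tested probe sets was 0.907 to 0.973 for the 28 pairs. All 6 hepatocyte genes on the marker list met the threshold for testing, with a summed signal of 76351 to 103872. The bile duct markers Krt7, Krt19 and Epcam stayed under 162 on every array. Of 5 pancreas genes on the array, the islet hormone genes Ins2 and Gcg stayed under 162 on every array. The other 3, Cela1 and Ctrb1 among them, met the threshold for testing, and the 5 had a summed signal of 1012 to 1736. Livers 4 and 8 stood apart in macrophage genes, whose summed signal over 12 genes was 22422 in liver 4 and 16321 in liver 8 against 5207 to 10232 in the other 6 livers, with Marco alone under 162 on every array. The summed signal of 14 interferon-induced genes ran from 4222 in liver 3 to 62871 in liver 4, and that of 16 acute-phase genes from 91530.1 in liver 5 to 173610 in liver 4, with liver 8 second in both. In a bulk sample, fewer cells of a type and less RNA per cell cannot be told apart. Calls that rest on these 2 livers are named as such. Spike-in control signals were higher on arrays 1 to 4 (mean log2 signal 10.70 to 10.88) than on arrays 5 to 8 (10.18 to 10.46), a split the labels do not name. Nothing states that the livers were independently processed, so all p-values refer to these 8 arrays. Those of the tests of variability concern the spread between arrays, and those of relations concern values that moved together across arrays. Either may be technical.

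The probe sets of the receptor and its substrates gave signals below the one required for testing, and Irs2 alone exceeded it in any liver. Irs2 (probe set 92205_at) encodes the substrate that carries much of the insulin signal in liver, and its signal was 115 in liver 1, 178 in liver 2, 186 in liver 3, 24.5 in liver 4, 36 in liver 5, 98.6 in liver 6, 65.2 in liver 7 and 39.7 in liver 8. Livers 2 and 3 were highest and exceeded the signal required for testing, and the other 6 were below it, so no order is read among them. The mean was 92.9 ± 63.1 (SD, n = 8), and no fold range is given because the lower values cannot be told from background. Because its mean was below the required signal, Irs2 was not tested in the chosen setting. When all 12422 non-control probe sets were tested, its SD of 1.10 on the log2 scale stood against a typical SD of 0.60 at that signal (adjusted p = 0.0227), where 8.17% of all probe sets passed; most of the values behind that SD lie under 162. The limma variance test, which sets each variance against the spread of variances over probe sets, did not call it there (adjusted p = 0.922). On arrays 1 to 4 its signal was 126 ± 74.6 and on arrays 5 to 8 it was 59.9 ± 28.9 (SD, n = 4 each), with overlap.

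Insr (probe set 102146_at), the receptor gene, had signals of 19.3 to 64.0 with a median of 38.2 and a mean of 40.7 ± 14.9 (SD, n = 8). Irs1 (probe set 98824_at), the other main substrate, had signals of 19.0 (liver 3) to 77.4 (liver 2), with a mean of 38.8 ± 18.6. All 8 values of both genes were above the floor of 11.2 set for the logarithm, and none reached the signal required for testing. Among all non-control probe sets, neither varied more than probe sets of like signal (SD of 0.56 and 0.63 on the log2 scale, typical SD 0.77 and 0.78). No level is set against another gene's, because probe sets differ in how strongly they bind.

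Promoter sequences are shown for Irs1 and Irs2 and for Igfbp1, which encodes an IGF-binding protein and is a classical insulin-repressed gene, because these are the windows among those examined that hold the letters CAAAACAA, the core of the insulin response element. They are RefSeq sequences of build GRCm38.p6 from 250 bases before to 50 bases after a gene's start, 5′ to 3′ on the gene's strand. Capitals mark CAAAACAA or its reverse complement TTGTTTTG. The first is the window of Irs2 on chromosome 8 (chr8:11008880-11009179, minus strand), the second that of Irs1 (chr1:82291390-82291689, minus strand) and the third that of Igfbp1 (chr11:7197537-7197836, plus strand).
Irs2: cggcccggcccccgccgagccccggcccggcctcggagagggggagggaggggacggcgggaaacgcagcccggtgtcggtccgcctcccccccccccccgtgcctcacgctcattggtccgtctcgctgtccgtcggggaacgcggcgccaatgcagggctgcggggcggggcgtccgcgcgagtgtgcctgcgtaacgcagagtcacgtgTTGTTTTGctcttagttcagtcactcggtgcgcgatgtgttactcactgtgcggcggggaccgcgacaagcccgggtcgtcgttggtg
Irs1: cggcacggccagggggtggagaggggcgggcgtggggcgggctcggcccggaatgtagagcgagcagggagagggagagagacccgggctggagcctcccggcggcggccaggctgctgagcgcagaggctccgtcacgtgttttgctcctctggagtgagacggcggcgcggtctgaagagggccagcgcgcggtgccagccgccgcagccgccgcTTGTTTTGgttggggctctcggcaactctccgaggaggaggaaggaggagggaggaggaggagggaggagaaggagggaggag
Igfbp1: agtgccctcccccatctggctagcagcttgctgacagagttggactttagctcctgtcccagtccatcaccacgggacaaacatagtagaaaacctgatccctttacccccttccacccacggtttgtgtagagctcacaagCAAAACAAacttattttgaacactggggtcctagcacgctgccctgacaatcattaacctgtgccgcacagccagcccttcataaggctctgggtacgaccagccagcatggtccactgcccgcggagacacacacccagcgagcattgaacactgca

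Counting the start site as position 1 with no position 0, the match begins at -38 in Irs2, at -33 in Irs1 and at -108 in Igfbp1. On both strands, CAAAACAA occurred in 2.51% of the 32851 windows of the same length. The forkhead core GTAAACA, also searched on both strands, occurred in 3.65% of them and, among the members, in 1 of the 2 windows of Akt1 (at -161). Of 14 windows of 9 members, 3 held either motif, and Insr had no window in the table. These matches describe letters, and binding was not measured.

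**Figure D1:**
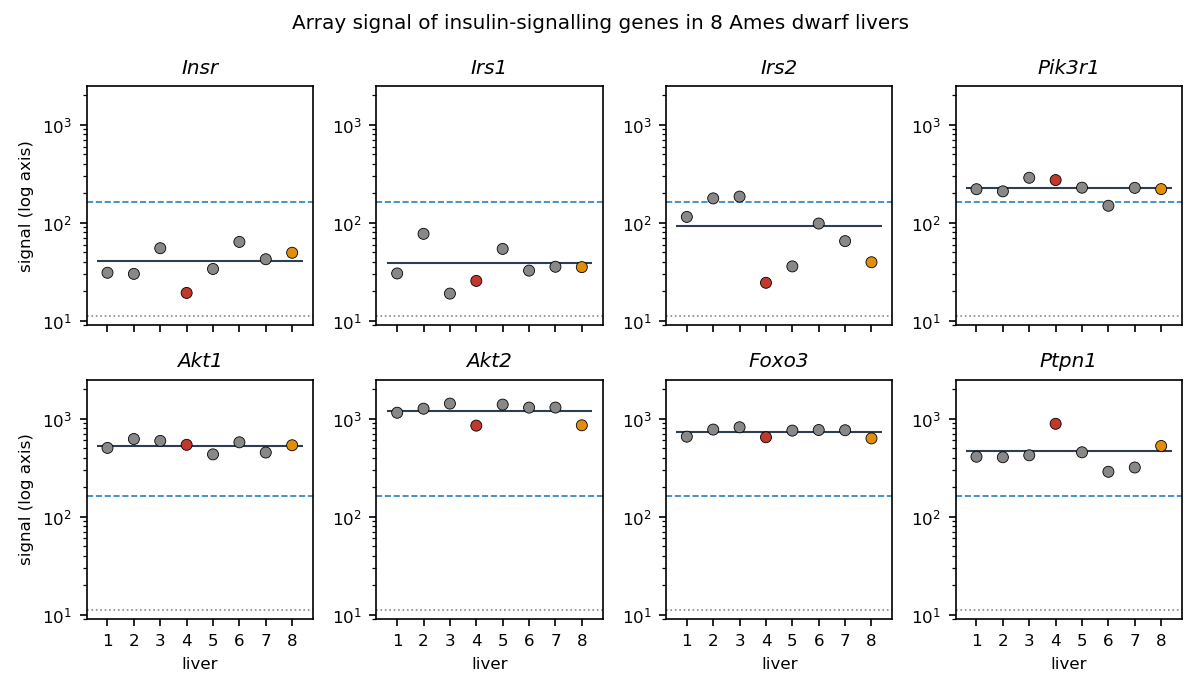
Array signal (log axis) of the 8 measured members in livers 1 to 8, with liver 4 in red and liver 8 in orange. Points are single arrays, the solid line is the mean of the 8 livers, the dashed line is the signal of 162 required for testing and the dotted line is the floor of 11.2. Akt2 and Foxo3 have their 2 lowest points in livers 4 and 8, and Ptpn1 has its 2 highest there.

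Of the kinase genes, Akt2 was low in 2 livers, and Akt1 and Pik3r1 were not. Akt2 (probe set 160558_at), the AKT isoform most linked to insulin action in liver, had signals of 1150.1, 1264 and 1426 in livers 1 to 3, 849.5 in liver 4, 1392, 1297 and 1300 in livers 5 to 7, and 856 in liver 8. Livers 4 and 8 were below all others, with no overlap, and the other 6 spanned 1.24-fold. Among all 4819 tested genes, 11.5% likewise had livers 4 and 8 as the 2 lowest. The mean was 1192 ± 225 (SD, n = 8) and the SD was 0.30 on the log2 scale against a typical 0.23. This spread did not pass the typical-variance test, which sets each variance against that of most probe sets of like signal (adjusted p = 0.432). Livers 4 and 8 remained the 2 lowest with arrays scaled to a common median, with quantile normalization and after centring within arrays 1 to 4 and 5 to 8.

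Akt1 (probe set 100970_at), the more widely expressed isoform, was not low in livers 4 and 8. Its signal was 531 ± 66.2 (SD, n = 8), from 432 in liver 5 to 620.3 in liver 2, with 541 in liver 4 and 536 in liver 8. Both of those values lie within the range of the other livers. Its SD of 0.18 on the log2 scale was below the typical SD of 0.24, and it did not pass the typical-variance test. Pik3r1 (probe set 96592_at), the regulatory subunit that brings phosphoinositide 3-kinase to the substrates, had signals of 150 (liver 6) to 289 (liver 3) and a mean of 228 ± 42.1. Liver 4, at 274, was the second highest, and liver 8, at 222, lay mid-range. The value of liver 6 was under the signal required for testing, and the SD of 0.29 on the log2 scale was near the typical 0.32.

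Foxo3 (probe set 92958_at), the FOXO factor among the measured members, had the smallest range of the 5 tested members in the values as deposited. Its signal was 655, 774 and 817 in livers 1 to 3, 646 in liver 4, 756, 766 and 762 in livers 5 to 7 and 630 in liver 8 (mean 726 ± 70.8, SD, n = 8). Livers 8 and 4 were again the 2 lowest, with liver 1 close above them, and the range was 1.3-fold. With arrays scaled to a common median the range was 1.51-fold, with the same 2 livers lowest. The SD of 0.14 on the log2 scale was below the typical 0.23, and the gene did not pass the typical-variance test.

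Ptpn1 (probe set 94929_at), which encodes the phosphatase PTP1B that dephosphorylates the insulin receptor, was the tested member with the widest range, and 1 liver set that range. Its signal was 409, 404 and 423 in livers 1 to 3, 887 in liver 4, 454, 287 and 318 in livers 5 to 7 and 526 in liver 8. Liver 4 was far above all others, liver 8 was second, and neither overlapped the other 6 livers, which spanned 1.58-fold. Livers 4 and 8 were the 2 highest in 9.73% of all tested genes. The range was 3.09-fold over the 8 livers and 1.83-fold without liver 4, around a mean of 463 ± 187 (SD, n = 8).

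The SD of Ptpn1 was 0.50 on the log2 scale against a typical 0.25, and it passed the typical-variance test (adjusted p = 0.00354). It was the 1 of 5 tested members that passed, while 11.3% of all 6211 tested probe sets passed, and a count of 1 among 5 is read against that share. The call ended without liver 4 (adjusted p = 0.697) and without livers 4 and 8 (0.991), and over the alternatives in which it was tested its adjusted p ran from 0.00102 to 0.991. In the limma test Ptpn1 did not pass (adjusted p = 0.776), and that test called 0 of 6211 probe sets (0%), against 425 (6.84%) at an unadjusted p under 0.05. With arrays scaled to a common median, its adjusted p in the typical-variance test was 0.0259.

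**Figure D2:**
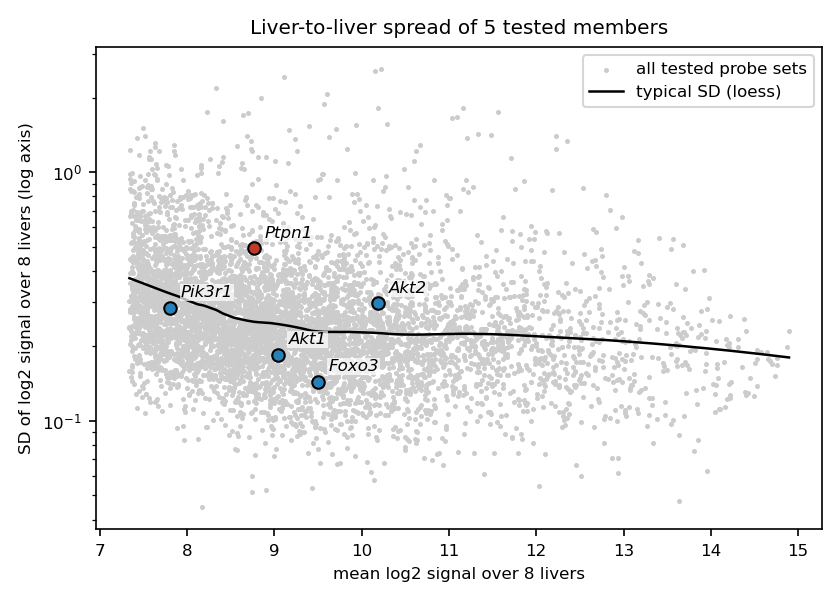
SD of the log2 signal over 8 livers (log axis) against mean log2 signal for 6211 tested probe sets (grey), with the typical SD as a black curve and the 5 tested members labelled. Ptpn1 (red, past the typical-variance test) lies at 0.50, above the curve, and Foxo3 at 0.14 and Akt1 at 0.18 lie below it.

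Akt2, Foxo3 and Ptpn1 were set beside the levels of immune and acute-phase genes in the same livers, because livers 4 and 8 were also high in those. The relation of Ptpn1 with the macrophage score, the mean centred log2 signal of 10 tested macrophage genes, was positive (r = 0.764, exact permutation p = 0.0258, adjusted over 18 relations p = 0.284, rho = 0.595 with p = 0.132 and adjusted p = 0.953). With the 2 livers of most extreme score left out, r was -0.07, so the relation rested on those livers, and it did not pass after adjustment. The acute-phase score gave r = 0.727 (exact permutation p = 0.0316, adjusted p = 0.284, rho = 0.405 with p = 0.327 and adjusted p = 0.953) and r = -0.11 without 2 livers. All 10 tested macrophage genes were highest in liver 4, as were 17.7% of all tested genes, and their part in the Ptpn1 values was not tested.

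The values of Akt2 fell into separate clusters, livers 4 and 8 against the rest, and those of Foxo3 into livers 1, 4 and 8 against the rest, so no relation over all 8 livers was tested for either in the values as deposited. Within the 6 other livers, Akt2 signal had a negative relation with the acute-phase score (r = -0.83, exact permutation p = 0.0417, adjusted over 6 relations p = 0.25, rho = -0.66 with p = 0.175), which did not pass after adjustment. For Foxo3 the larger cluster held 5 livers and the relation could not be tested. Where another scaling narrowed that gap, Foxo3 could be tested over all 8 livers: with a common array median it had a negative relation with the acute-phase score (r = -0.93, exact permutation p = 0.00253, adjusted p = 0.0202, rho = -0.93, r = -0.87 without 2 livers) and with the interferon score (r = -0.93, exact permutation p = 0.00057, adjusted p = 0.00685, rho = -0.98, r = -0.84 without 2 livers). That scaling raised the SD of Foxo3 on the log2 scale from 0.14 to 0.20. It divided Foxo3 by the array median, which was highest in livers 8 and 4, so the relation of Foxo3 with the array median is in part built in and is not read. Both scores were also highest in livers 4 and 8. The division therefore lowered Foxo3 where the scores were high, and its relations with them are not free of that scaling. The parts of array scaling and of immune and acute-phase genes in the Foxo3 values were not tested. Arrays 1 to 4 and arrays 5 to 8 are too few for a relation within each set, and after centring within the sets the acute-phase relation had r = -0.95 (exact permutation p = 0.000918, adjusted p = 0.0117, rho = -0.88 with adjusted p = 0.0869).

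**Figure D3:**
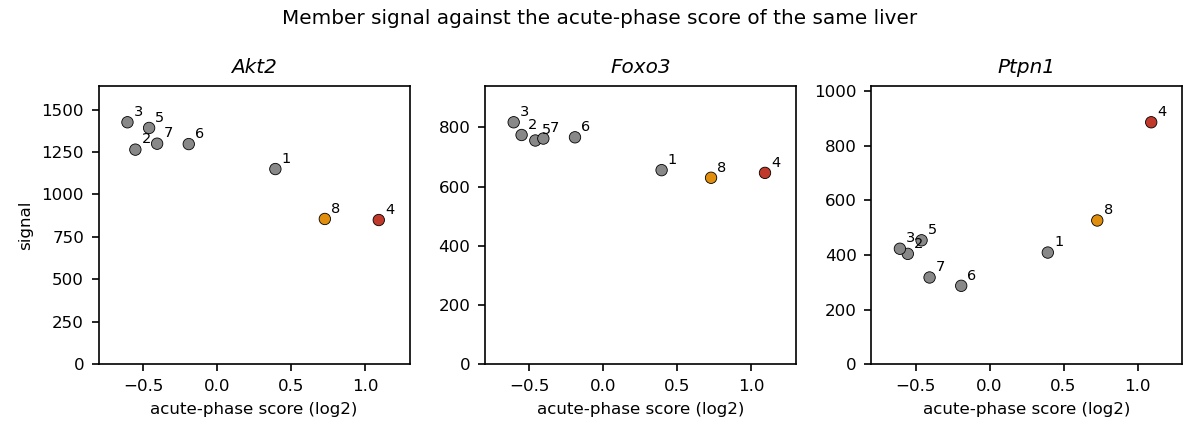
Signal of Akt2, Foxo3 and Ptpn1 (each axis starting at 0) against the acute-phase score of the same liver, the mean centred log2 signal of 15 tested acute-phase genes, with points numbered by liver. Livers 4 (red) and 8 (orange) have the highest scores, the lowest Akt2 signals (849.5 and 856) and the highest Ptpn1 signals (887 and 526).

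The 5 tested members had no common order of livers. Of their 10 pairs, 4 had a Pearson r above 0 across the livers, and the median r was -0.10, beside a median of 0.005 over all pairs of the 4819 tested genes, of which 50.4% were above 0. With a common array median, 7 of 10 pairs were above 0 with a median of 0.14, while all pairs also moved, to a median of 0.09 with 56.7% above 0. These medians describe all 10 pairs, including 7 with Akt2 or Foxo3 whose values were clustered. Tested over 8 livers were the other 3 pairs, and none passed. The strongest of them was Pik3r1 with Ptpn1 (r = 0.636, exact permutation p = 0.114, adjusted over 3 pairs p = 0.341, rho = 0.643 with p = 0.0962 and adjusted p = 0.289, r = -0.00082 without 2 livers). The pairs of Akt1 with Pik3r1 and with Ptpn1 had r of -0.09 and 0.05 (exact permutation p = 0.837 and 0.922, adjusted p = 0.922 for both). Within the 6 livers other than 4 and 8, Akt2 had r = 0.365 with Pik3r1, -0.03 with Akt1 and 0.176 with Ptpn1 (exact permutation p = 0.475, 0.9625 and 0.765, adjusted p = 0.9625 for all 3). The 4 pairs with Foxo3 could not be tested.

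The other genes of the insulin pathway had a median range equal to that of all tested genes. Of 58 other genes of the pathway listed, 41 were on the array, 30 were tested and 2 passed the typical-variance test (6.67%, beside 10.3% of all 4819 tested genes). Their median range was 1.61-fold, that of all tested genes also 1.61-fold, and the median of the 5 tested members was 1.68-fold. Socs1, a cytokine-induced inhibitor that also binds the insulin receptor, was highest in liver 4 (826) and second highest in liver 8 (411), as Ptpn1 was, and lay at 24.9 to 253 in the other 6 livers. Its signal was under 162 in 3 livers, and it met the threshold for testing only through liver 4: its geometric mean was 180.3 over 8 livers and 145 without that liver. It was therefore not tested without liver 4 or without livers 4 and 8, and its call and its range rest on them. Ide, the insulin-degrading enzyme, ran from 258 in liver 5 to 652 in liver 7 in the probe set that stands for it (adjusted p = 0.0161), but its second tested probe set spanned 1.43-fold and did not pass. Without liver 5 the first did not pass either (adjusted p = 0.733). The probe sets of Shc1, an adaptor named here after its values were seen, differed too: the one that stands for it spanned 1.43-fold, and another, at 39.6 to 308 and with a geometric mean of 162 at the threshold, passed (adjusted p = 5.57e-06) but was not tested without liver 4.

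The remaining genes named from that list did not pass. Gsk3a, the paralogue of Gsk3b, had signals of 2589 in liver 4 and 3052 in liver 8 below 3361 to 4497 in the other 6 livers, so the same 2 livers were lowest as for Akt2. Grb7, an adaptor, ranged from 1954 (liver 4) to 2918 (liver 2), and Igf1r, the related receptor for IGF1, from 146 (liver 2) to 341 (liver 8). Ahsg, a plasma protein that inhibits the receptor's kinase, ranged from 21485 to 27355, or 1.27-fold.

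Genes known as FOXO outputs in liver held several of wide range, and they did not share one order of livers. Of 26 listed, 21 were on the array, 17 were tested and 5 passed (29.4%), beside 10.3% of all 4819 tested genes, with a median range of 1.98-fold beside 1.61-fold. The list was chosen with results of these livers known, so this share is not independent evidence. Igfbp1 was at 3012, 5544 and 9456 in livers 1 to 3, 10170 in liver 4, 709 in liver 5, 5449 and 5628 in livers 6 and 7 and 7818 in liver 8. Liver 4 was highest and liver 5 far below the rest, a 14.3-fold range (adjusted p = 9.13e-44). The second Igfbp1 probe set lay at 11.0 to 27.6, below the signal required for testing.

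G6pc, the catalytic subunit of glucose-6-phosphatase, was highest in liver 3 (6428) and lowest in liver 4 (1034), the liver where Igfbp1 was highest (adjusted p = 5.23e-18). Pck1, the carboxykinase of gluconeogenesis, was also highest in liver 3 (7734) and lowest in liver 4 (4283), and its 1.81-fold range did not pass (adjusted p = 0.53). Irs2, itself known as a FOXO target, was also highest in liver 3, and its values in all livers but 2 and 3 were under 162. Among all tested genes, 22.4% were lowest in liver 4 and 11.4% highest in liver 3.

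**Figure D4:**
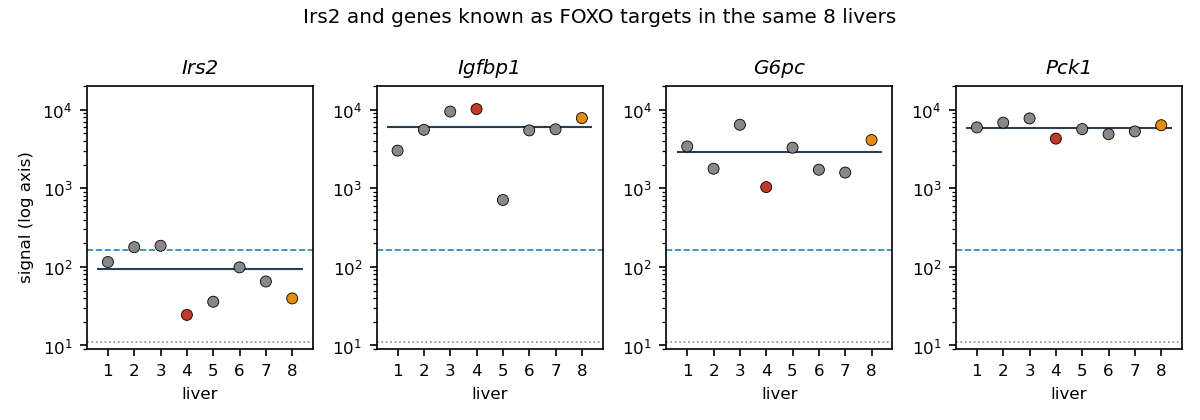
Array signal (log axis) of Irs2, Igfbp1, G6pc and Pck1 in livers 1 to 8, drawn as in the plot of the members by liver, with means as solid lines, the signal of 162 required for testing dashed and the floor of 11.2 dotted. Igfbp1 peaks in liver 4 (10170), where G6pc (1034) and Pck1 (4283) have their lowest points, and Irs2 exceeds the dashed line in livers 2 and 3 only.

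The 3 other FOXO targets that passed were Bnip3, Mttp and Txnip. Bnip3, a mitophagy receptor, had 681 in liver 4 and 1232 to 1997 in the others, and it did not pass without liver 4. Mttp, which loads lipid onto apolipoprotein B, ranged from 204 (liver 5) to 572 (liver 7) and did not pass without liver 5 (adjusted p = 0.594), nor without liver 1 (0.056) or liver 7 (0.0568). Txnip, an inhibitor of thioredoxin, ranged from 724 (liver 4) to 1987 (liver 2) in one probe set and 1.55-fold in another, and it did not pass without liver 2 (adjusted p = 0.179). Ccng2, a growth-arrest cyclin, ranged 3.01-fold, from 131 (liver 1) to 394 (liver 8), just outside the threshold (adjusted p = 0.051). Cat, or catalase, ranged 1.57-fold. For Cdkn1a, a cell-cycle inhibitor named after its values were seen, the probe set that stands for it did not pass (adjusted p = 0.134), and a second one did (0.0104). That second probe set was highest in livers 8 (335) and 4 (293) and under 162 in 3 livers. It passed without liver 4 (adjusted p = 0.0152), but without livers 4 and 8 it fell below the threshold for testing, so its call rests on them.

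Of 12 genes known as induced by insulin, 9 were tested and 4 passed (44.4%), beside 10.3% of all tested genes, with a median range of 2.20-fold beside 1.61-fold. This list too was chosen with results of these livers known. The 4 were Fasn, Pklr, Elovl6 and Thrsp, named here after their values were seen, all of the glycolytic and lipogenic program. Second tested probe sets of Pklr (adjusted p = 0.0512) and Elovl6 (0.481) did not pass. Without livers 4 and 8, Pklr did not pass (adjusted p = 0.432), while Fasn (0.0012), Elovl6 (0.0137) and Thrsp (0.0213) did. Liver 1 alone set the range of Fasn, at 3243 against 1393 to 2002 in the other livers. No result for Fasn without liver 1 is given here. Srebf1, the transcription factor that insulin raises, had 3783 in liver 3 and 5930.2 in liver 1, a range of 1.57-fold, and did not pass. Of 20 relations between a tested member and Igfbp1, G6pc, Pck1 or Srebf1, 8 were clustered and none of the other 12 passed. The smallest exact permutation p was 0.0551 (adjusted p = 0.661), for Akt1 with Igfbp1 (r = 0.673, rho = 0.429, r = 0.113 without 2 livers). Of the 8, the 4 of Akt2 were tested within 6 livers and none passed (smallest exact permutation p = 0.101, adjusted p = 0.406, for Srebf1 with r = -0.71), and the 4 of Foxo3 could not be tested.

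**Figure D5:**
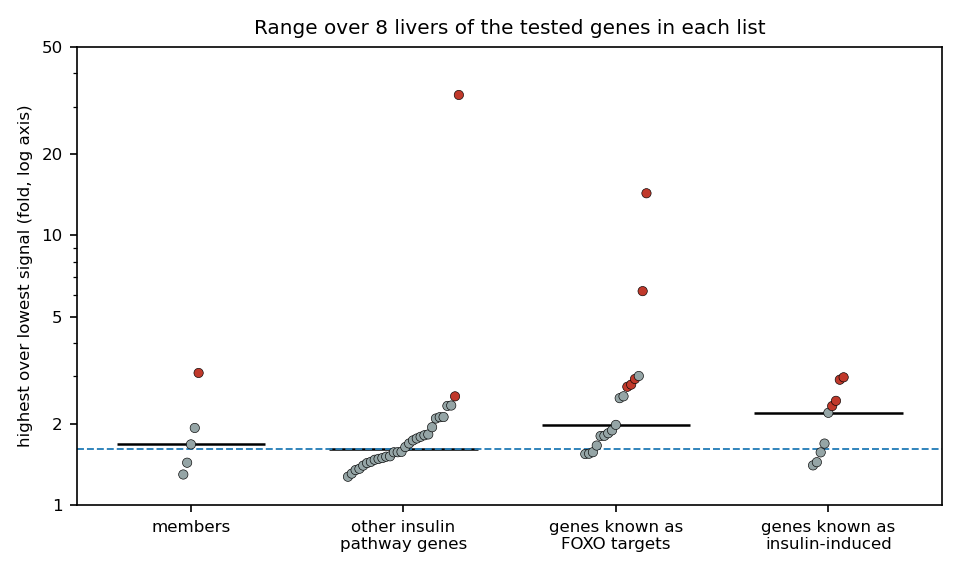
Highest over lowest signal in the 8 livers (log axis) for each tested gene of the members, the other insulin pathway genes, the genes known as FOXO targets and the genes known as induced by insulin. Red points passed the typical-variance test, black bars are list medians (1.68, 1.61, 1.98 and 2.20-fold) and the dashed line is the median of all 4819 tested genes (1.61-fold).

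For each tested member, the 3 genes whose log2 signal followed it most closely over the 8 livers were found among the other 4818 tested genes, as a description with no test, since the arrays share scaling and the livers share their differences in immune genes. For Akt2 and Foxo3, whose values were clustered over the 8 livers, r is given over the 6 livers without livers 4 and 8. For Foxo3 those 6 still hold liver 1 (655), apart from the rest (756 to 817), so its r is not free of the clusters. Ech1, a peroxisomal and mitochondrial isomerase of fatty acid oxidation, ranked first for Akt2 and followed it at r = 0.963 over those 6 livers. It had 2167 in liver 4 and 4131 in liver 5. The next for Akt2 were Ss18l2 (r = 0.840) and 0610012G03Rik (r = 0.910).

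Foxo3 was followed by Hpn, a hepatocyte surface protease (r = 0.978 over 6 livers), Car3, a cytosolic carbonic anhydrase (0.969), and Amotl2 (0.969). All 3 were highest in liver 3, as Foxo3 was. Ptpn1 was followed by Mapre1, a microtubule end-binding protein (r = 0.972 over 8 livers and 0.871 over 6), Pip4k2a, a phosphoinositide kinase (0.967 and 0.896), and Eftud2, a splicing factor (0.956 and 0.956). All 3 were highest in liver 4.

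Pik3r1 was followed by Swi5 (r = 0.950 over 8 livers and 0.981 over 6), Inppl1, which encodes the lipid phosphatase SHIP2 (0.950 and 0.945), and Lsm1 (0.945 and 0.959), all lowest in liver 6. Akt1 was followed less closely, by Lactb2 (r = 0.887 and 0.959), Smim11 (0.886 and 0.890) and Kcnk4 (0.881 and 0.899), all lowest in liver 5. No gene was named among the closest of more than 1 member.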

How the data were processed

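Total liver RNA of 8 mice was hybridised to Affymetrix U74Av2 arrays, 1 array per liver, per the labels. The values are the deposited signal intensity of 12488 probe sets, 66 of them controls. The software that computed and scaled them is not given in the sources used here. Each array's trimmed mean (2% off each end) was 500 to within 0.00896%, so the arrays had been scaled before deposit, and the values were used as given. Values were set to at least 11.2 (the 10th percentile) before log2. Tests covered the 6211 non-control probe sets with mean log2 signal above the median, and a gene is represented by its tested probe set of highest mean signal.

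The typical-variance test divided each variance by a robust loess curve of log variance on mean log2 signal (span 0.3) and compared the ratio with the chi-square distribution (7 degrees of freedom, one-sided). The limma variance test used squeezeVar with a trended robust prior (7 and 4.90 degrees of freedom). Both were adjusted by Benjamini-Hochberg over all tested probe sets, at 0.05. Relations used exact two-sided permutation over all 40320 pairings, adjusted within each family. Adjusted rho values follow the same rule. After centring within arrays 1 to 4 and 5 to 8 the permutation p-values are not exact. Where a gap above 50% of the range separated at least 2 arrays on each side, no pooled correlation of a named pair was tested. None was printed either, except the median r of 0.90 above the 75th percentile of signal, where Akt2 with Foxo3 was the only pair. That value is pooled over clustered livers and is not read as a relation. Where 6 or more livers lay on one side of a gap, they were tested alone. The median over pairs and the ranking of like genes use all 8 livers. The scripts were tested on simulated data. The tools were R 4.3.3 with limma 3.58.1, and Python 3.11.15 with numpy 2.4.6, pandas 2.3.3, scipy 1.17.1 and matplotlib 3.10.9. Of the probe sets, 10833 had 1 symbol in the platform annotation, 396 several and 1193 none.

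The members and lists were chosen with earlier results of these data known. Named are all members, every tested gene past the typical-variance test in the lists of other insulin pathway genes, FOXO targets and main outputs, the 3 of highest signal and of widest range in each, and the 3 genes most like each tested member; Shc1, Cdkn1a and the insulin-induced genes are named outside this rule. No array's values matched another's at more than 0.296% of probe sets. The number of arrays limits the precision. Alternatives covered scaling, floor, filter, loess span and fit, probe set choice, arrays 1 to 4 against 5 to 8, and left-out livers.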

Additional observations from a re-analysis of the deposited data

Results flagged for a closer look

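Ptpn1 in liver 4 stood apart from the other 7 livers: the gap between its signal (887) and the next highest (526, liver 8) was 0.601 of the gene's whole range, above Dixon's 95% critical value for 8 samples. On the log2 scale the same share was 0.462, below that value. On the log2 scale 2 others of the same genes, Igfbp1 (0.543) and Bnip3 (0.552), exceeded it, so which gene stands apart depends on the scale. Of 23 genes examined, 1 exceeded it on the linear scale, and chance exceeds it in about 1 of 20 groups. The 23 did not hold every gene named here. Fasn and Inppl1 were not among them, and both exceeded the same value on the linear scale (0.671 and 0.581) and on the log2 scale (0.571 and 0.649). Ptpn1 was therefore not the only named gene with a value set apart.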

How the results depend on the processing

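Members past the typical-variance test numbered 1 (Ptpn1); with no filter on low signal the number was 2 (Ptpn1 and Irs2), above the 75th percentile of signal 0 because Ptpn1 was not tested there, without livers 4 and 8 it was 0, and leaving out 1 liver at a time gave 0 to 1. The limma count was 0 under every alternative. The median range of the tested members (1.68-fold) was 2.51-fold with no filter, where the 3 low-signal members entered, and 1.44 to 1.68-fold with 1 liver left out. The median pairwise r (-0.10) was 0.14 with a common array median, 0.0196 with quantile normalization, 0.90 above the 75th percentile, where the clustered pair of Akt2 and Foxo3 alone was left, 0.18 without livers 4 and 8, and -0.32 to 0.13 with 1 liver left out, so its sign is not settled. The relations of members with array and marker measures that passed numbered 0. They numbered 4 with a common array median, with quantile normalization and with centring within arrays 1 to 4 and 5 to 8. All were of Foxo3, whose gap between livers was then 37.4%, 49.8% and 49.3% of the range. The last 2 are just under the limit of 50%, so those values remained nearly as clustered. With centring none of the 4 passed by rank (smallest adjusted permutation p of rho = 0.0869). In each of these settings 1 of the 4 is with the array median, by which the first of these scalings divides. Without livers 4 and 8, Ptpn1 had r = -0.10 with the macrophage score and r = -0.175 with the acute-phase score, opposite to the values over 8 livers. Pairs of members and relations with output genes that passed were 0 under all alternatives. Scaling to a common median shifted arrays by -0.10 to 0.11 on the log2 scale. The least-squares loess was chosen after seeing the data. No paired analysis was possible because the livers form 1 group.

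Insr, Irs1 and Irs2 lie at signals where background and expression cannot be told apart, and the expression of Foxo1 and Gsk3b was not analysed here. With 1 array per liver, liver and array differences cannot be told apart.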
